A study of Mus musculus with 6 samples.

Results

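AKR1C3 and 9 other genes whose products make, activate or inactivate androgens were examined in BL-B01D1–resistant prostate cancer cells and in the cells they came from. The members, taken by gene name, were AKR1C1, AKR1C2, AKR1C3, SRD5A1, SRD5A3, HSD3B1, HSD17B4, HSD17B6, HSD17B11 and STS, which are 10 of the 58735 genes in the deposited table. RNA-Seq covered 22Rv1 cells, a human prostate cancer line that grew from a castration-relapsed xenograft. The parental group, called Control in the sample titles, received vehicle. The resistant group, 22Rv1 BL-B01D1_R, carried BL-B01D1 as its treatment label and had been selected in culture at doses of this agent that went up in steps. BL-B01D1 is a bispecific antibody-drug conjugate that binds EGFR and HER3 and delivers a camptothecin-derived topoisomerase I inhibitor. Each group held 3 libraries. Both groups shared the 22Rv1 background, and no genetic change was introduced into either group. The resistant group was 1 subline from 1 selection, and no source used here says that the libraries came from separate cultures, so the p-values measure only the spread between these libraries, which may be technical. Whether the agent was present at harvest is not given in the sources used here.

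Prostate cells can make potent androgens from adrenal precursors that circulate mainly as sulfates. A sulfatase (STS) frees the steroid, a 3β-hydroxysteroid dehydrogenase (HSD3B1) and a reductive 17β-hydroxysteroid dehydrogenase (AKR1C3) carry it to testosterone, and a 5α-reductase (SRD5A1) turns testosterone or its precursors into 5α-reduced androgens such as dihydrotestosterone. Other enzymes of the AKR1C and HSD17B families reduce dihydrotestosterone to weak diols, oxidize a diol back, or oxidize active 17β-hydroxysteroids to weaker ketones, and local synthesis along these routes is a known feature of castration-resistant prostate cancer.

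Total counts on genes lay between 13821639 and 17251491 per library, at which 3 counts correspond to 0.174 to 0.216 CPM (counts per 1e6 TMM-scaled library counts). Of all genes, 34035 had a count in some library and 17142 passed the filter on low counts and were tested with edgeR. The libraries held the RNA of luminal prostate cancer cells, with all 8 luminal adenocarcinoma markers tested and a summed level of 2775 to 2839 CPM in parental and 2917 to 3012 CPM in resistant libraries. By FDR, 5 of the 8 were higher in resistant cells and HOXB13 (log2 fold change −0.48), KRT18 (−0.18) and EPCAM (−0.13) were lower. Over all genes tested, 17.1% were higher and 18.4% lower by FDR. Markers of other cell types ranged from absent to well expressed. The 3 leukocyte markers had at most 3 counts in a library, with CD3E at 0, and of the basal markers KRT5 was at 0, KRT14 reached 2 counts and TP63 reached 5. The 4 neuroendocrine markers summed to 135 to 149 CPM in parental and 110 to 118 CPM in resistant libraries, with NCAM1 and INSM1 at 5 counts or fewer. SYP was the highest of them at 103 CPM in parental and 106 CPM in resistant cells, and CHGA fell from 39.4 to 8.18 CPM (log2 fold change −2.26, FDR = 2.49e-24). The 4 fibroblast markers summed to 111 to 114 CPM and 39.0 to 43.4 CPM, with COL1A2 at 2 counts or fewer and LUM falling from 96.0 to 28.8 CPM (log2 fold change −1.74, FDR = 1.11e-26). None of the 4 markers of steroid-producing adrenal or gonadal cells passed the filter or exceeded 4 counts. Changes in these markers moved with the groups, and their part in the results below was not tested.

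AKR1C3 mRNA was 2.65-fold higher in the resistant cells, and no other tested member had an estimate past the 2-fold threshold in either direction. Of the 10 members, 9 passed the filter. A gene was called at an FDR (Benjamini-Hochberg over all 17142 genes) under 0.05 with an absolute log2 fold change over 1. By edgeR, 1 of 9 members was called higher, against 2.53% of all genes tested, and 0 of 9 were called lower, against 2.84%. limma-voom and DESeq2 gave the same 1 and 0. By FDR alone, 1 of 9 members was higher, against 17.1% of all genes, and 2 of 9 were lower, against 18.4%. At an unadjusted edgeR p under 0.05 the members again numbered 1 higher and 2 lower. The groups did not overlap for 4 members. For 1 of these the resistant group was the higher one, against 22.1% of genes tested, and for 3 it was the lower one, against 22.8%. Over the 9 tested members the median log2 fold change was −0.03, beside 0.0038 over all genes tested. By FDR alone, the member counts were thus near or below the background share of genes that differed between these lines.

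**Figure D1:**
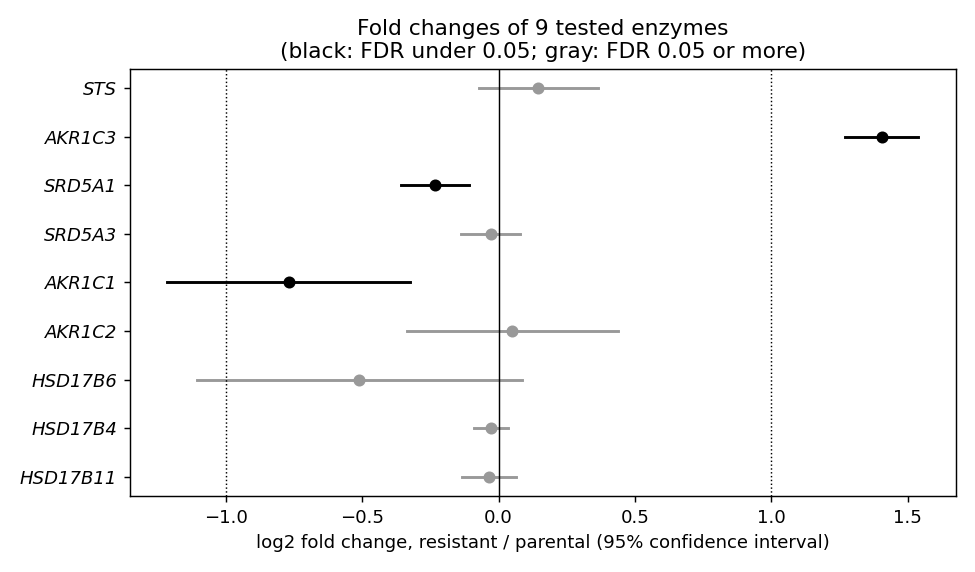
Log2 fold change (resistant over parental, edgeR) of the 9 tested members, with points for the estimate, horizontal lines for its 95% confidence interval and dotted lines at the call threshold of 1 in both directions. AKR1C3 lies at 1.40 with an interval of 1.27 to 1.54, and AKR1C1 and SRD5A1 are the other members drawn in black for an FDR under 0.05.

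The entry of the route showed little change. STS (ENSG00000101846, chrX:7219456-7354810 of hg38, plus strand), the steroid sulfatase that releases dehydroepiandrosterone from its sulfate, had 287, 249 and 164 counts in parental libraries 1 to 3 and 292, 242 and 230 in resistant libraries 1 to 3. These gave 16.6, 14.8 and 11.8 CPM in parental and 17.6, 16.5 and 14.2 CPM in resistant libraries. The groups overlapped, since resistant library 3 lay below parental libraries 1 and 2. The log2 fold change was 0.15 (SE 0.108, 95% confidence interval −0.07 to 0.36, FDR = 0.313).

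HSD3B1 (ENSG00000203857, chr1:119507198-119515054, plus strand), which converts dehydroepiandrosterone to androstenedione, had 0 counts in all 6 libraries and was not tested. A count of 0 allows up to 3 counts in a library, which for this gene is 0.0712 to 0.0885 FPKM (CPM per kilobase of the gene length listed in the table), counting error only. Its paralog HSD3B2 reached no more than 2 counts. An HSD3B1 transcript was therefore not detectable in either group at this depth.

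AKR1C3 (ENSG00000196139, chr10:5035354-5107686, plus strand) reduces androstenedione to testosterone and also acts on prostaglandins and other carbonyls. It had 362, 343 and 292 counts in parental libraries 1 to 3 and 890, 808 and 920 in resistant libraries 1 to 3. Scaled for depth, these were 21.0, 20.4 and 21.0 CPM in parental and 53.7, 54.9 and 56.7 CPM in resistant libraries. Both groups were tight and far apart: the lowest resistant library stood more than 2-fold above the highest parental one. The mean rose from 20.8 ± 0.343 to 55.1 ± 1.51 CPM (SD, n = 3 libraries each), with a log2 fold change of 1.40 (SE 0.0658, 95% confidence interval 1.27 to 1.54) and an FDR of 3.06e-21 by edgeR's quasi-likelihood test. The estimate stayed between 1.38 and 1.42 when each library was left out in turn.

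SRD5A1 (ENSG00000145545, chr5:6633343-6674386, plus strand), the 5α-reductase isoenzyme that predominates in castration-resistant prostate cancer, moved the other way by a small amount. It had 53.1, 46.7 and 52.9 CPM in parental libraries from 916, 784 and 734 counts. The resistant libraries held 41.1, 44.0 and 44.9 CPM from 681, 647 and 728 counts. All 3 resistant libraries lay below all 3 parental libraries, with the narrowest gap between parental library 2 and resistant library 3. The mean fell from 50.9 ± 3.65 to 43.3 ± 1.98 CPM, which is 0.851 of the parental level (log2 fold change −0.23, SE 0.0612, FDR = 0.00239), so the fall was past the FDR threshold but well short of the fold threshold.

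SRD5A3 (ENSG00000128039, chr4:55346109-55373096, plus strand) is named as a steroid 5α-reductase and is best known as the polyprenol reductase that supplies dolichol for N-glycosylation. Its levels were 70.2, 66.8 and 60.5 CPM in parental and 61.8, 63.9 and 68.3 CPM in resistant libraries, from 1210, 1121 and 840 and from 1024, 940 and 1109 counts. The groups overlapped fully, with a log2 fold change of −0.03 (SE 0.0542, 95% confidence interval −0.14 to 0.08, FDR = 0.728). The depth was sufficient for this interval to lie well within the 2-fold threshold. SRD5A2, the isoenzyme of normal prostate, had 0 counts in every library.

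**Figure D2:**
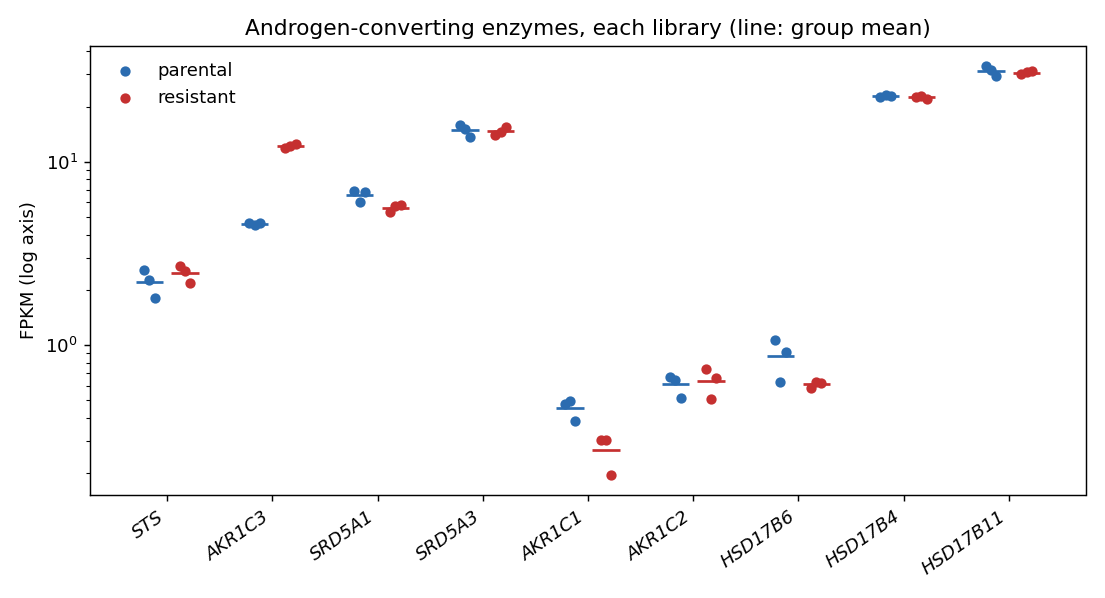
FPKM (log axis) of 9 members in each of the 6 libraries, with points for single libraries, coloured by group, and short lines for the group mean. HSD3B1, at 0 counts in all libraries, is not drawn. The AKR1C3 points of the resistant group lie between 11.8 and 12.5 FPKM, above the parental points at 4.51 to 4.64 FPKM, and HSD17B11 is the highest member in both groups.

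The other AKR1C genes inactivate dihydrotestosterone: AKR1C2 reduces it mainly to the 3α-diol, and AKR1C1 mainly to the 3β-diol, while AKR1C1 also reduces progesterone. AKR1C1 (ENSG00000187134, chr10:4963253-4983283, plus strand) had 4.18, 4.35 and 3.39 CPM in parental libraries from 72, 73 and 47 counts, and 2.65, 2.65 and 1.73 CPM in resistant libraries from 44, 39 and 28 counts. Every resistant library lay below every parental one. The mean was 3.97 ± 0.513 CPM in parental and 2.34 ± 0.535 CPM in resistant cells (log2 fold change −0.77, SE 0.220, 95% confidence interval −1.21 to −0.32, FDR = 0.00516).

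AKR1C2 (ENSG00000151632, chr10:4987400-5018031, minus strand) had 4.35, 4.17 and 3.31 CPM in parental libraries from 75, 70 and 46 counts, and 4.77, 3.26 and 4.25 CPM in resistant libraries from 79, 48 and 69 counts. Resistant library 2 was the lowest of the 6 and resistant library 1 the highest, so the groups overlapped. The log2 fold change was 0.05 (SE 0.191, 95% confidence interval −0.33 to 0.44, FDR = 0.871). AKR1C1 and AKR1C2 are near-identical in coding sequence, and how reads that match both were counted is not given in the sources used here. With the counts of both genes added, an alternative chosen after seeing the data, the libraries held 8.53, 8.52 and 6.70 CPM in parental and 7.42, 5.91 and 5.98 CPM in resistant cells. The groups then overlapped, and the log2 fold change of the sum was −0.30 (FDR = 0.102), a smaller fall than that of AKR1C1 alone. As counted, AKR1C2 had a level similar to AKR1C1 in parental libraries and no fall of its own. Whether reads shared between these 2 genes affect the AKR1C1 value was not tested.

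Set beside each other per length, the AKR1C genes were led by AKR1C3 in both groups. AKR1C3 made up 81.2 ± 2.21% of the summed FPKM of AKR1C1, AKR1C2 and AKR1C3 in parental cells and 93.1 ± 1.01% in resistant cells (SD, n = 3). The AKR1C1 share was 8.00 ± 0.929% and 2.05 ± 0.503%, and the AKR1C2 share was 10.8 ± 1.32% and 4.85 ± 0.911%. The ratio of AKR1C3 to AKR1C2 FPKM was 7.64 ± 1.22 in parental and 19.7 ± 4.01 in resistant cells. The ratio of AKR1C3 to AKR1C1 FPKM was 10.3 ± 1.54 and 47.6 ± 13.8, with the highest resistant value, 63.5, in library 3, where AKR1C1 had its lowest count. The sum of the 3 genes was 5.66 ± 0.122 FPKM in parental and 13.1 ± 0.265 FPKM in resistant cells. These shares and ratios are descriptions of levels already tested gene by gene, and were not tested again. They depend on the deposited gene lengths, 8765 bases for AKR1C1, 6461 for AKR1C2 and 4532 for AKR1C3. AKR1C4, the mainly hepatic AKR1C gene, was not tested, with 0, 0 and 1 counts in parental and 1, 2 and 12 counts in resistant libraries. Most of its counts thus came from 1 library.

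**Figure D3:**
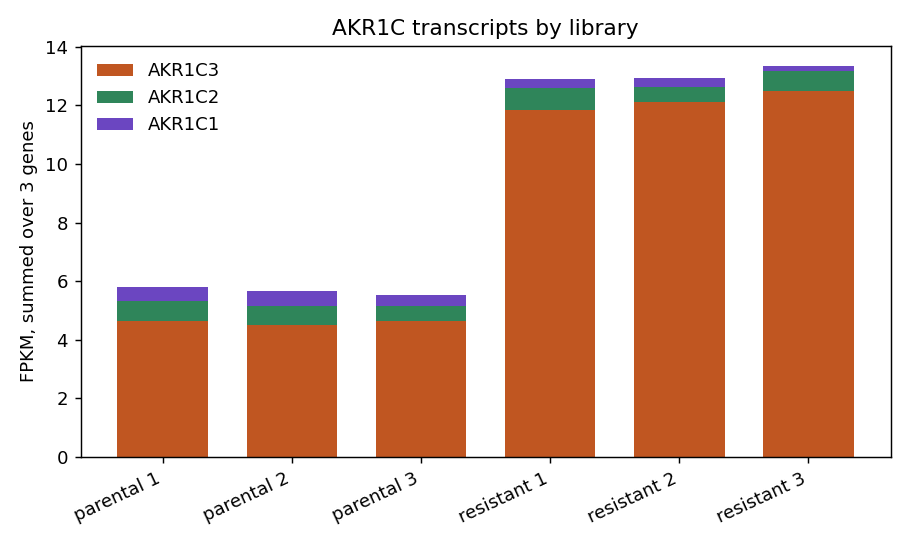
FPKM of AKR1C1, AKR1C2 and AKR1C3 stacked for each of the 6 libraries, so that the bar height is their sum. AKR1C3 fills most of every bar, with a mean of 93.1% in resistant and 81.2% in parental libraries.

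HSD17B6, HSD17B4 and HSD17B11 act in the oxidative direction. HSD17B6 (ENSG00000025423, chr12:56752161-56787790, plus strand), which can oxidize the 3α-diol back to dihydrotestosterone, was weakly expressed, with 42, 24 and 29 counts in parental and 22, 21 and 23 counts in resistant libraries. These gave 2.44, 1.429 and 2.09 CPM in parental and 1.33, 1.428 and 1.42 CPM in resistant libraries. The groups do not overlap, but parental library 2 and resistant library 2 were level to within 0.01 CPM, and the log2 fold change of −0.51 (SE 0.295, 95% confidence interval −1.11 to 0.09) had an FDR of 0.185. At about 20 to 40 counts per library the interval reaches past a 2-fold fall, so the depth does not tell a 2-fold fall from no change.

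HSD17B4 (ENSG00000133835, chr5:119452443-119637199, plus strand), a peroxisomal multifunctional enzyme of fatty acid β-oxidation that also oxidizes 17β-hydroxysteroids, was the deepest-covered member, with 3367 to 4166 counts per library. Its levels were 242, 246 and 243 CPM in parental and 240, 243 and 234 CPM in resistant libraries. The groups overlapped within a few percent, and the log2 fold change was −0.03 (SE 0.0309, 95% confidence interval −0.09 to 0.04, FDR = 0.558).

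HSD17B11 (ENSG00000198189, chr4:87336610-87391386, minus strand), a lipid droplet–associated enzyme that oxidizes androstanediol, had 80.6, 76.8 and 71.1 CPM in parental libraries from 1390, 1290 and 987 counts and 73.2, 74.6 and 75.7 CPM in resistant libraries from 1214, 1098 and 1229 counts. The 3 resistant libraries lay inside the parental range. The log2 fold change was −0.03 (SE 0.0486, 95% confidence interval −0.13 to 0.06, FDR = 0.629).

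Several members share their position with other genes, and whether counting used strand is not given in the sources used here. SRD5A3-AS1, opposite SRD5A3, had 80, 69 and 58 counts in parental and 50, 53 and 44 in resistant libraries (log2 fold change −0.48, FDR = 0.0524). PRIM1, a DNA primase subunit opposite HSD17B6, had 433 to 593 counts per library (log2 fold change −0.17, FDR = 0.0630). PRIM1 thus held many more counts than HSD17B6. Its span ends at 56752373, just past the HSD17B6 start at 56752161, so these genes overlap only at their ends. Whether PRIM1 reads entered the HSD17B6 counts was not tested. The antisense gene at AKR1C2 reached no more than 2 counts in a library, and the genes that overlap HSD17B11, on its own strand, no more than 4.

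Ordered by FPKM, the members of the parental group were HSD17B11 (31.3 FPKM), HSD17B4 (22.8), SRD5A3 (14.9), SRD5A1 (6.60), AKR1C3 (4.59), STS (2.21), HSD17B6 (0.874), AKR1C2 (0.610), AKR1C1 (0.453) and HSD3B1 (0). This order, like the percentiles and ratios below, depends on the deposited gene lengths. By CPM, parental HSD17B4 stood at 243 and HSD17B11 at 76.2, with lengths of 10664 and 2435 bases. Whether these lengths match the transcripts expressed here was not tested. Of the expressed neighbours in this order, HSD17B6 and AKR1C2 overlapped between libraries and the other pairs did not. In the resistant group AKR1C3 reached 12.2 FPKM and stood above SRD5A1 at 5.61 FPKM and STS at 2.47 FPKM and below SRD5A3 at 14.6 FPKM, with its libraries between 11.8 and 12.5 FPKM. HSD17B11 (30.6 FPKM) and HSD17B4 (22.4 FPKM) still led, and AKR1C2 (0.634 FPKM) and HSD17B6 (0.612 FPKM) overlapped, above AKR1C1 at 0.267 FPKM. Among all tested genes AKR1C3 stood at percentile 51.4 by FPKM in parental and 75.5 in resistant cells, SRD5A1 at 60.3 and 56.1, and HSD17B11 at 91.4 and 91.2. The ratio of AKR1C3 to the oxidative HSD17B4 was 0.201 in parental and 0.543 in resistant cells by FPKM, and to HSD17B11 0.147 and 0.397. The ratio of SRD5A3 to SRD5A1 was 2.27 ± 0.251 and 2.61 ± 0.0635.

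Members were taken by gene name, but AKR1C1, AKR1C2 and AKR1C3 form a cluster on chromosome 10. Position there was thus not independent of the choice of members. Within 500 kb of the span from AKR1C1 to AKR1C4 (4463253 to 5718949 on hg38) the table listed 36 genes, of which 8 were tested and 5 were not members. None of these 5 was called, where 2.53% of all genes tested were called higher and 2.84% lower. By FDR none rose and 1 fell, against 17.1% higher and 18.4% lower over all genes tested. FAM208B fell slightly, with a log2 fold change of −0.08 (SE 0.0313, FDR = 0.0314). This FDR result was lost in DESeq2 (FDR = 0.0579), with no filter (FDR = 0.0823) and when parental library 2 or 3 or resistant library 1 or 2 was left out (FDR = 0.0670, 0.0717, 0.0952 and 0.0940). AKR1E2, another aldo-keto reductase, had a log2 fold change of 0.13 (FDR = 0.780), the guanine nucleotide exchange factor NET1 −0.02 (FDR = 0.635), and the ubiquitin ligase adaptor ASB13 −0.02 (FDR = 0.831). The noncoding AL365356.4, at 8 to 28 counts per library, had 0.88 (SE 0.400, FDR = 0.0822). The median log2 fold change of the 5 was −0.02, beside 1.40 for AKR1C3 in their midst.

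**Figure D4:**
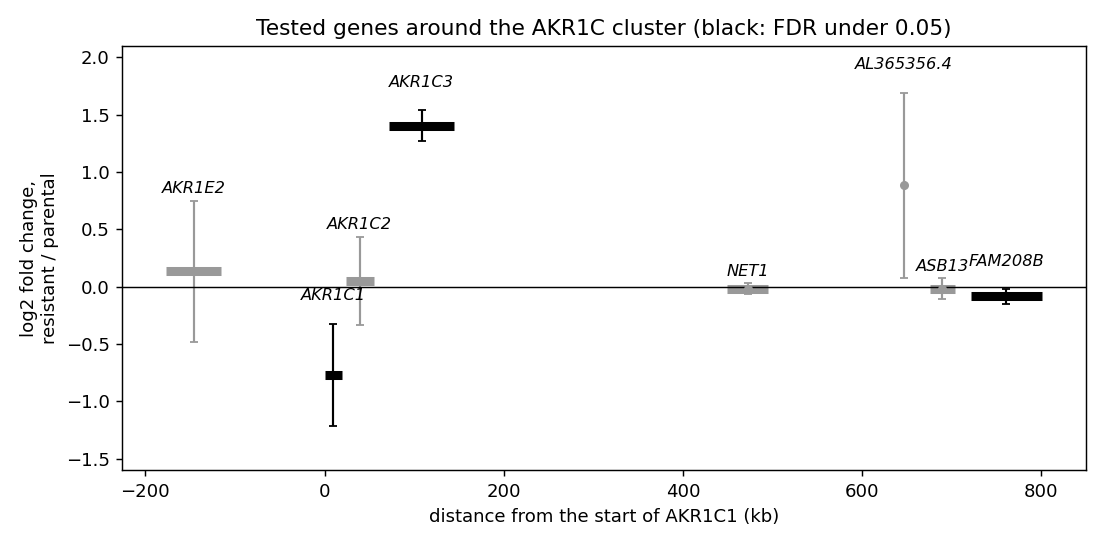
Log2 fold change (resistant over parental) of the tested genes around the AKR1C cluster against distance from the start of AKR1C1 in kb. Thick horizontal bars span each gene, vertical bars give the 95% confidence interval, and black marks an FDR under 0.05. AKR1C3 lies at 1.40, AKR1C1 at −0.77 and AKR1C2 at 0.05, and the 5 other genes have a median of −0.02.

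The genes with profiles over the 6 libraries most like that of AKR1C3, by root mean square difference of log2 CPM after subtraction of the parental mean, were KLK4 (0.0588), HLA-DMB (0.0730) and TP53INP1 (0.0741) among 15549 genes. KLK4, an androgen-regulated kallikrein protease, had a log2 fold change of 1.46 (FDR = 1.05e-32). HLA-DMB, a chaperone of MHC class II peptide loading, had 1.43 (FDR = 1.44e-05), and TP53INP1, a stress-response and autophagy protein, had 1.46 (FDR = 6.23e-25). With 2 groups, such likeness describes mainly a similar fold change.

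Other genes of the same families were then counted. The counts of this and the following lists stand beside 17.1% higher and 18.4% lower by FDR over all genes tested. The shares called were 2.53% higher and 2.84% lower. Of 14 other aldo-keto reductases and related subunits, 13 were listed in the table and 8 were tested: 1 was higher and 3 were lower by FDR, none past the fold threshold, with a median log2 fold change of −0.17. The potassium channel β subunits KCNAB1 and KCNAB2 fell by 0.65 and 0.42 on the log2 scale (FDR = 3.64e-05 and 0.00015). The aldehyde reductase AKR1A1 had −0.14 (FDR = 0.017), an FDR result lost in DESeq2 (FDR = 0.0509) and without parental library 1 (FDR = 0.0869) or resistant library 3 (FDR = 0.0815). The single higher gene, AKR7A2, named after its value was seen, had 0.13 (FDR = 0.0491), an FDR result lost in limma-voom (FDR = 0.0529), DESeq2 (FDR = 0.111), with library size alone (FDR = 0.0866), no filter (FDR = 0.0698) or the replicate block (FDR = 0.0601), and without parental library 2 or 3 (FDR = 0.107 and 0.236) or resistant library 2 or 3 (FDR = 0.150 and 0.124). AKR1B1 and AKR1B10, which reduce aldose and retinal, had 0 counts in every library.

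Of 13 HSD17B family genes, AKR1C3 and 3 other members among them, 10 were tested, of which 2 were higher and 1 lower by FDR, with a median of 0.01. HSD17B7, a reductive estrogen-forming enzyme that also serves cholesterol synthesis, fell from 33.3 to 23.9 CPM (log2 fold change −0.48, FDR = 7.86e-07). HSD17B14 had 17, 14 and 19 counts in parental and 35, 26 and 39 in resistant libraries, with a log2 fold change of 0.996 that missed the fold threshold narrowly (SE 0.311, FDR = 0.0103). Its FDR result was lost without parental library 2 (FDR = 0.0523) or resistant library 3 (FDR = 0.0553). HSD17B8, of mitochondrial fatty acid synthesis, had 0.13 (FDR = 0.0546). HSD17B3, the testicular enzyme that makes the same reduction as AKR1C3, and the oxidative HSD17B2 had 0 counts in every library. The 2 of 10 tested family genes that rose by FDR were AKR1C3 and HSD17B14, against 17.1% of all genes tested.

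Of the 6 5α-reductase and 3β-hydroxysteroid dehydrogenase genes, 3 were tested, with SRD5A1 lower, HSD3B7 higher and SRD5A3 short of the threshold. HSD3B7, which acts on bile acid precursors and not on androgens, had a log2 fold change of 0.25 (FDR = 0.0197), lost in DESeq2 (FDR = 0.0635) and without parental library 3 (0.19, FDR = 0.116), resistant library 1 (FDR = 0.0524) or resistant library 2 (FDR = 0.0518). Of 14 genes for steroid synthesis from cholesterol, 6 were tested, 1 higher and 1 lower, with a median of 0.05. FDX1, the ferredoxin of mitochondrial steroid hydroxylases, fell by 0.30 on the log2 scale (FDR = 0.000114). Its reductase FDXR had 0.19 (FDR = 0.0346), an FDR result lost in DESeq2 (FDR = 0.0907), with library size alone (FDR = 0.0542), with no filter (FDR = 0.0609), without resistant library 3 (FDR = 0.146), without parental library 1 or 3 (FDR = 0.0909 and 0.0668) and without resistant library 2 (FDR = 0.0680). CYB5A, the cytochrome b5 that aids the lyase step, had 0.09 (FDR = 0.241). CYP17A1, CYP11A1 and STAR, which define de novo synthesis, had 4 counts or fewer.

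Of 12 genes of sulfate handling, STS included, 8 were tested, 3 higher and 2 lower by FDR, and 1 was called, with a median of 0.11. SLCO2B1, a transporter that imports steroid sulfates, had 4, 10 and 5 counts in parental and 20, 32 and 36 counts in resistant libraries (log2 fold change 2.21, SE 0.407, FDR = 2.64e-05), which is a clear separation at a very low level. PAPSS1 and PAPSS2, which make the sulfate donor used by sulfotransferases, fell from 222 to 166 CPM (log2 fold change −0.42, FDR = 8.63e-14) and from 10.4 to 5.29 CPM (−0.99, FDR = 1.87e-07). SUMF2, a paralog of the factor that activates STS and other sulfatases, rose by 0.39 (FDR = 4.58e-14), and that factor itself, SUMF1, named after its value was seen, rose by 0.35 (FDR = 0.000371). SULT2A1, the main sulfotransferase of dehydroepiandrosterone, had no more than 1 count in a library.

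Of 8 genes for oxidation of 3α-diols and related steroids or retinoids, HSD17B6 included, 5 were tested. RDH11, a retinal reductase of prostate, had a log2 fold change of 0.10 (FDR = 0.00997), lost without parental library 2 (FDR = 0.0616) or resistant library 1 (FDR = 0.0570), and RDH5 had 0.25 (FDR = 0.344). By edgeR, 0 of the 5 were lower by FDR, as in limma-voom and DESeq2, and 0 were lower at an unadjusted p under 0.05. Of 5 androgen glucuronidation genes, 2 were tested. UGT2B15, which conjugates dihydrotestosterone and its diols for excretion, had 12.1, 11.6 and 9.22 CPM in parental and 5.31, 5.17 and 5.36 CPM in resistant libraries. Its fall was past both thresholds (log2 fold change −1.06, SE 0.137, FDR = 2.88e-08), with no overlap between the groups. UGDH, which makes the glucuronic acid donor, rose by 0.24 (FDR = 2.19e-06), and UGT2B17, UGT2B28 and UGT2B7 had at most 6 counts.

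Known androgen-responsive genes were counted as a further list. Of 15 genes, 14 were listed and 12 tested: 10 were higher and 1 was lower by FDR, 2 of them called, with a median log2 fold change of 0.72. KLK4 had 166, 169 and 184 CPM in parental and 468, 467 and 485 CPM in resistant libraries, and PLPP1, a lipid phosphatase, 22.3 ± 0.844 and 52.0 ± 3.13 CPM (log2 fold change 1.22, FDR = 1.14e-18). FKBP5, the immunophilin that chaperones steroid receptors, rose from 335 to 626 CPM (0.90, FDR = 3.19e-27). PMEPA1, an inhibitor of TGF-β signaling, rose by 0.73 (FDR = 1.10e-21), and ELL2, an elongation factor, by 0.70 (FDR = 8.88e-20). The gene that fell, ZBTB16, named after its value was seen, had −0.22 (FDR = 0.000672). KLK4 also headed the genes with a profile like that of AKR1C3, which with 2 groups describes mainly a similar fold change. Whether the change in AKR1C3 is linked to those of these genes was not tested.

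AKR1C genes are also known targets of the oxidant-responsive factor NRF2, so 22 other NRF2 targets were counted. Of 20 tested, 9 were higher and 6 lower by FDR, against 17.1% and 18.4% of all genes tested. The 2 genes called were both higher, against 2.53% of all genes tested, and the median was 0.07. NQO1, a quinone reductase and standard NRF2 readout, had 14.7, 14.2 and 14.3 CPM in parental and 98.5, 95.3 and 100 CPM in resistant libraries. Its groups were far apart (log2 fold change 2.76, FDR = 5.71e-33). The efflux transporter ABCC2 rose by 1.44 (FDR = 4.40e-06) from a low level, and GCLC, the catalytic subunit of glutathione synthesis, by 0.48 (FDR = 7.49e-13). The cystine importer SLC7A11 fell by 0.87 (FDR = 1.49e-19) and the epoxide hydrolase EPHX1 fell by 0.61 on the log2 scale (FDR = 1.38e-13). AKR1C1 and AKR1C2, which belong to the same class of targets, had the values of −0.77 and 0.05 given above. Their summed counts had −0.30 (FDR = 0.102). Genes of the list moved in both directions. Whether NRF2 is linked to the change in AKR1C3 was not tested.

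**Figure D5:**
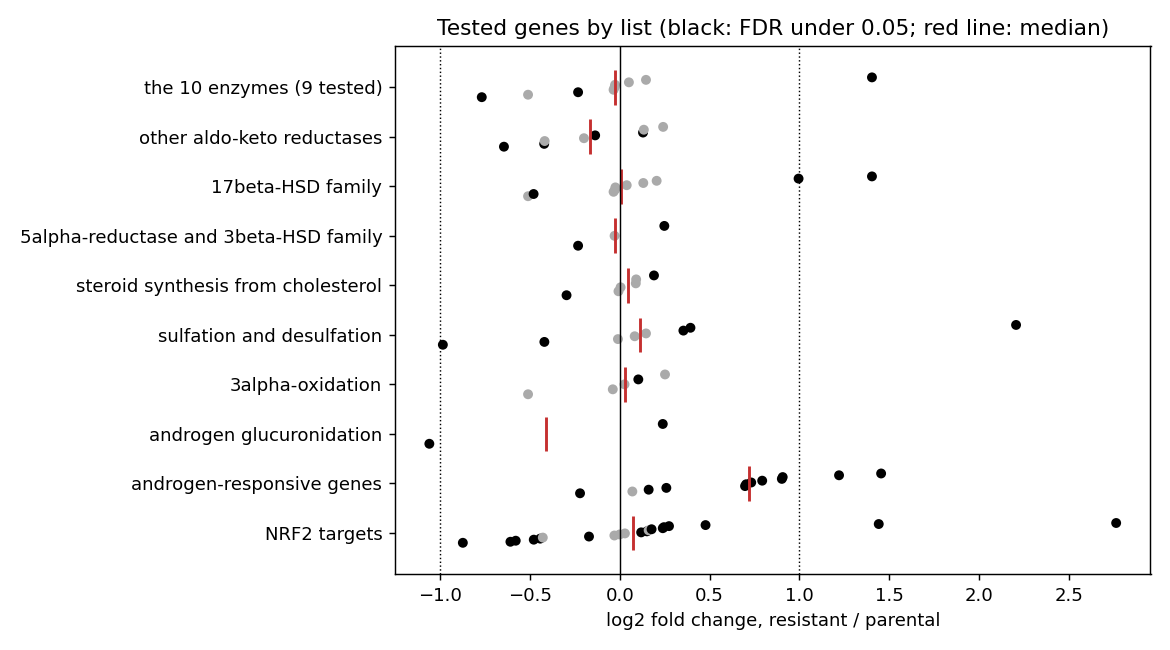
Log2 fold change (resistant over parental) of each tested gene of the members and of the 9 related gene lists, 1 row per list, with a point per gene (black for an FDR under 0.05, gray otherwise) and a red line at the list median. The median is 0.72 for the androgen-responsive genes, −0.17 for the other aldo-keto reductases and −0.03 for the members, beside 0.0038 over all genes tested.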

How the data were processed

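Oligo-dT–selected RNA of 6 libraries was sequenced on an Illumina instrument. Per the submitters' processing notes, the tools were fastp, HISAT2 2.0.5 and featureCounts 1.5.0-p3 with build hg38. The authors deposited raw read counts per gene, not normalized, with each gene's name, position and length. The gene length, another quantity deposited by the authors in bases, was used for FPKM. The annotation release, the use of strand and the treatment of reads that match several genes are not given in the sources used here. The labels name mouse as the organism, but cells and gene identifiers are human. Columns of per-sample values left unused numbered 0.

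Counts were compared with edgeR 4.0.16 (R 4.3.3): filterByExpr, TMM, quasi-likelihood test, Benjamini-Hochberg over 17142 genes. The thresholds are those of the study's methods, which name limma (limma-voom 3.58.1 was run as an alternative, as was DESeq2 1.42.0). The SE is the size of the log2 fold change over the square root of F. Replicates were not duplicates: chi-square per degree of freedom was 1.77 to 2.46 within groups and 20.0 to 23.8 across groups. The biological coefficient of variation was 3.51%. Floors from 3 counts cover counting error only. The confidence intervals use this SE from the quasi-likelihood fit, so like the p-values they include the estimated spread between these libraries. Other alternatives were RLE scaling, library size alone, the replicate number as a block, a prior count of 5, a stricter filter of 10 or more counts per library or none, AKR1C1 to AKR1C4 summed, and each of the 6 libraries left out.

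Members and gene lists were chosen with earlier results of these data known. Named genes are all members, all tested genes around the AKR1C cluster, the 3 most similar to AKR1C3 in profile, and of each list those called plus up to 3 with the lowest FDR. Others are marked. Some listed genes are not reported here and were left out of the list and marker counts. The scripts were tested on simulated data.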

Additional observations from a re-analysis of the deposited data

How the results depend on the processing

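Of 131 refits of single members, 122 kept their direction and side of the FDR threshold and 7 changed sign, and all 52 refits of the member counts stayed within 1.5 times the value given. The AKR1C1 result was no longer past the FDR threshold in the sum with AKR1C2 (log2 fold change −0.30, FDR = 0.102), which also turned the sign of AKR1C2, and the sum of AKR1C1 to AKR1C4, which AKR1C3 dominates by construction, gave 1.10 (FDR = 5.31e-19), which turned the direction of AKR1C1 and took AKR1C2 past the threshold. With 1 library left out, the log2 fold change of AKR1C1 ranged from −0.87 to −0.59 (highest FDR 0.0482) and that of SRD5A1 from −0.29 to −0.19 (highest FDR 0.0322). Estimates near 0 that missed the threshold changed sign with 1 library left out, over −0.072 to 0.18 for AKR1C2 (negative without parental library 3 or resistant library 1), −0.082 to 0.020 for SRD5A3 (positive without parental or resistant library 1) and −0.079 to 0.0083 for HSD17B11 (positive without parental library 1), and among the neighbours over −0.028 to 0.0063 for NET1 and −0.035 to 0.013 for ASB13. Over all genes, 434 were called higher and 487 lower, against 248 and 287 with at least 10 counts in every library, where fewer genes were tested, and 525 and 553 with no filter. Of 162 list counts under alternatives, 144 stayed within 1.5 times. The other aldo-keto reductases with a higher level by FDR numbered 1, but 0 with library size alone, limma-voom or the replicate block, and 0 to 1 with a library left out. Those for steroid synthesis numbered 1, but 0 with library size alone and 0 to 1 with a library left out. The leave-one-out ranges for genes with a higher level were 1 to 2 in the HSD17B family and 0 to 1 both in the 5α-reductase and 3β-hydroxysteroid dehydrogenase family and for 3α-oxidation. The causes of these losses were not tested. Deviations of same-numbered libraries from their group means correlated at −0.00806, −0.0196 and −0.0157, so no effect shared by replicate number was visible. These values cannot tell whether the libraries were prepared in pairs. The replicate block gave 418 calls of a higher and 471 of a lower level over all genes, and the members remained at 1 higher and 2 lower by FDR. Depth limits genes at few or no counts, HSD3B1 and AKR1C4 among them.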
